A study of Mus musculus with 100 samples.

Results

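Healthy knee joints of STR/ort and MRL/MpJ mice were compared before any injury, at 0-day, in the 4 STR/ort and 4 MRL/MpJ libraries that carry these strain and time labels, which are 8 of the 100 libraries of the series. STR/ort is an inbred line that develops osteoarthritis on its own and is labelled highly susceptible to the post-traumatic disease, while MRL/MpJ, an inbred line known for closing wounds with little scar, is labelled not susceptible. All of these mice were 10 weeks old, carried no transgene by their labels, received no treatment and were uninjured. The rest of the series holds C57BL/6J joints, labelled moderately susceptible, and joints collected 1-day, 1-week or 2-weeks after a single compressive load ruptured the anterior cruciate ligament of the right knee, together with the uninjured contralateral joints of the same mice. Poly(A) RNA was sequenced from the whole joint, cut at the ends of femur and tibia with traces of soft tissue, so that bone, marrow, cartilage, meniscus, synovium, ligament, muscle and fat entered the same library. A lower level in such a library can mean fewer cells of a type or less RNA per cell, and the counts cannot tell these apart. Both strains differ at very many places in the genome, the labels do not give the sex of the mice, and a difference between the strains is not tied to any single allele.

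A synovial joint is built from several tissues whose genes can be followed in bulk RNA. The synovial lining and the surface of cartilage secrete lubricin and hyaluronan, chondrocytes deposit collagen type II and aggrecan, fibroblasts of capsule, ligament and tendon lay down fibrous collagens with small leucine-rich proteoglycans, and the marrow between the bone trabeculae makes red cells and leukocytes. Cells that are stretched, stressed or stimulated switch on immediate early genes within minutes, a class of transcription factors and short-lived regulators whose RNA is normally scarce at rest, and interferon or inflammatory cytokines switch on their own sets of target genes.

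Total counts ran from 8805390 to 10883412 in the STR/ort libraries and from 6182016 to 10808962 in the MRL/MpJ libraries, and between 16596 and 17008 genes had counts in each. The levels below are CPM, the counts scaled to library size with TMM factors, always listed in the order of replicates 1 to 4, and every difference is the log2 fold change of STR/ort minus MRL/MpJ with its standard error. Defining markers of the labelled tissue, for cartilage (Col2a1, Acan, Comp), bone (Col1a1, Dmp1), synovial lining (Prg4), muscle (Myh4) and marrow (Hbb-bs, Elane), had counts in each of the 8 libraries. None of 7 sex-linked genes and none of 25 housekeeping genes were called between the strains.

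The STR/ort libraries stood apart in pairs. Replicates 1 and 2 correlated at 0.994 with each other over 11727 genes, replicates 3 and 4 at 0.9915, and the 4 combinations across these pairs at 0.9833 to 0.9849, whereas the MRL/MpJ libraries correlated at 0.9898 to 0.9934. Between the STR/ort pairs, 131 of these 11727 genes were apart by over 1.5-fold with no overlap. Fos was 517, 435, 155 and 155 CPM in STR/ort, Cox5b, a subunit of respiratory complex IV, was 439, 503, 1381 and 1299 CPM, and Ucp1, the uncoupling protein of brown fat, was 0, 0.118, 24.3 and 17.9 CPM. All 12 libraries of 0-day belong to 1 experimental batch in the labels, and no label separates the pairs. Total counts of called list members that moved by over 1.5-fold in a fit with replicates 1 and 2 only or with replicates 3 and 4 only, both chosen after seeing the data, are given with those fits, and the part of the pairs in other results was not tested.

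**Figure D1:**
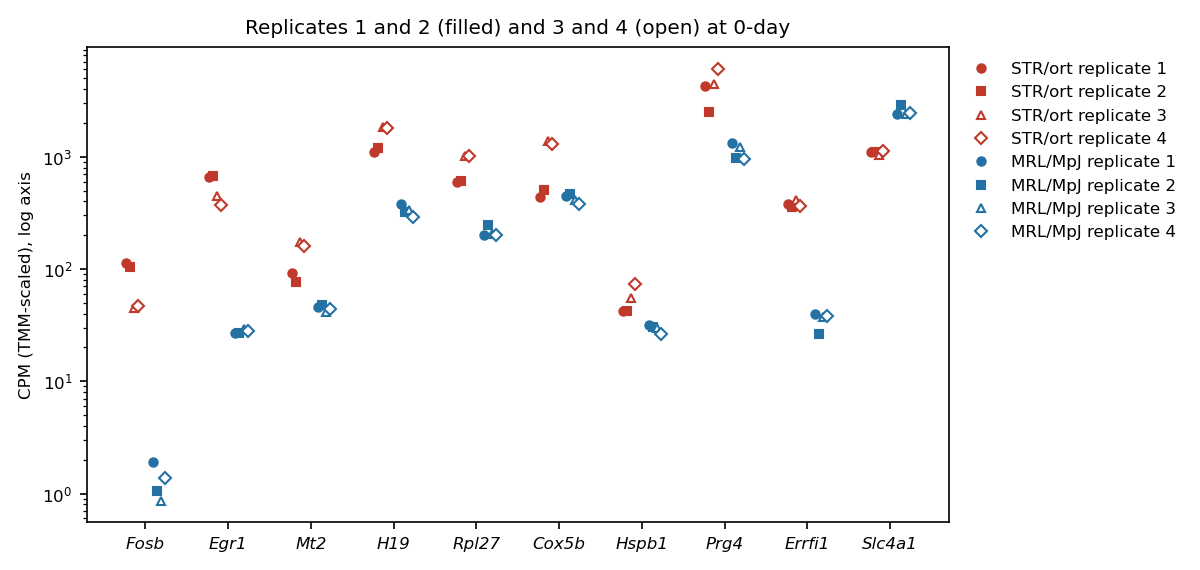
Levels (CPM, log axis) of 10 genes in each STR/ort and MRL/MpJ library of 0-day, with replicates 1 and 2 as filled and replicates 3 and 4 as open symbols, colored by strain. Fosb and Egr1 are higher in STR/ort replicates 1 and 2, while Mt2, H19, Rpl27 and Cox5b are higher in its replicates 3 and 4. For Cox5b, replicates 1 and 2 of STR/ort lie near MRL/MpJ, which measured 450.1, 463, 409 and 382 CPM.

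Of 17310 genes tested, 2558 were called between STR/ort and MRL/MpJ (14.8%), where a call needs an adjusted p below 0.05 by edgeR's quasi-likelihood test and a fold change above 1.5. Of these, 1444 were higher in STR/ort (8.34% of genes tested) and 1114 were lower (6.44%), around a median difference of 0.007 over all genes. Without the fold threshold, an adjusted p below 0.05 alone was reached by 5850 genes. The 4 libraries of the strains did not overlap for 5531 genes (32%), 2581 of them higher in STR/ort (14.9%) and 2950 lower (17%). The fit with STR/ort replicates 3 and 4 only called 3052 genes and the fit with replicates 1 and 2 only called 2063.

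The uninjured contralateral joints of injured mice gave the same comparison in other animals and other libraries, although these mice had an injured opposite knee. There, 3913 genes (22.6%) were called at 1-day, 13.1% of those tested higher and 9.54% lower in STR/ort. At 1-week 4221 (24.4%) were called, 13.7% higher and 10.7% lower, and at 2-weeks, in another experimental batch, 2393 (13.8%), 7.97% higher and 5.86% lower. These fits held more libraries than the 0-day fit, among them injured joints of the same mice, and had no term for the mouse. Their numbers of calls are therefore not measured against that of 0-day on equal terms. Of the 1444 genes higher in STR/ort at 0-day, 990 (68.6%) were called in the same direction at 1-day, 943 (65.3%) at 1-week and 787 (54.5%) at 2-weeks, and 611 (42.3%) at all 3 times. Of the 1114 genes lower in STR/ort, 662 (59.4%), 624 (56%) and 628 (56.4%) were called again, and 419 (37.6%) at all 3 times. Opposite calls were 17, 28 and 3 among the former and 6, 5 and 2 among the latter. A direct test of the difference between the strain effect at 0-day and that in the contralateral joints of 1-day and 1-week, which share its batch, called 3838 genes (22.2%), 2023 with a higher STR/ort to MRL/MpJ ratio in the contralateral joints (11.7%) and 1815 with a lower ratio (10.5%). Where contralateral medians are given below, they stand in the order of 1-day, 1-week and 2-weeks.

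**Figure D2:**
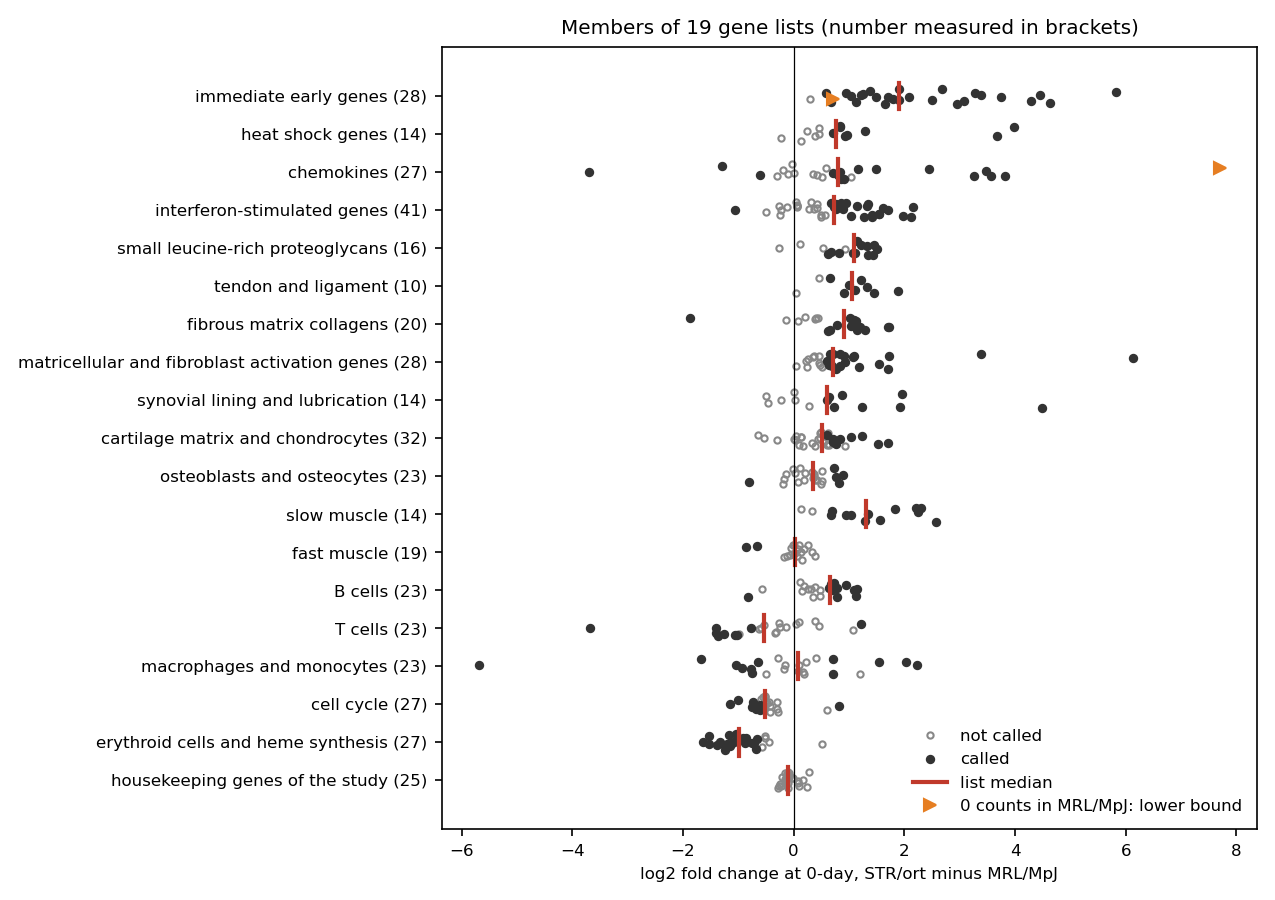
Log2 fold change at 0-day, STR/ort minus MRL/MpJ, of the members of 19 gene lists (x axis). Each point is 1 gene, filled when called, and red bars are list medians. Orange triangles mark genes with 0 counts in every MRL/MpJ library at their lower bound. Immediate early genes lie at a median of 1.91, erythroid genes at -0.99 and the housekeeping genes at -0.1.

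The largest median of the 48 gene lists was in the immediate early genes, of which 27 of 28 rose in STR/ort with a median difference of 1.91 (1.85 with Fosl1, which had 0 counts in MRL/MpJ, at its lower bound). The call of Fosl1 was lost in 12 alternative fits, among them DESeq2 and the fit of the 8 libraries alone. It was also lost without any single MRL/MpJ library and without replicate 3 or 4 of STR/ort, at adjusted p from 0.052 to 0.104. Fosb, a subunit of the AP-1 transcription factor, measured 113, 104, 45 and 46.6 CPM in STR/ort and 1.90, 1.05, 0.861 and 1.38 CPM in MRL/MpJ. Every STR/ort library lay far above every MRL/MpJ library, and among the STR/ort libraries replicates 1 and 2 were the higher pair (log2 difference 5.83 ± 0.38, adjusted p = 1.6e-09). Egr2, a zinc finger factor, measured 86.6, 89.2, 58 and 50.6 CPM in STR/ort and 3.10, 3.37, 2.41 and 2.24 CPM in MRL/MpJ (log2 difference 4.63 ± 0.22, adjusted p = 2.4e-11). Nr4a1, a nuclear receptor induced by many stimuli, measured 383, 366, 287 and 264 CPM in STR/ort and 59.7, 53.4, 67.5 and 51.2 CPM in MRL/MpJ (log2 difference 2.49 ± 0.13, adjusted p = 8.6e-11). For both genes the strains did not overlap, and the strain difference was wider than the split among the STR/ort libraries. Fos itself showed a difference of 4.46 ± 0.36 and Junb, another AP-1 subunit, of 2.68 ± 0.19, while Srf, the factor that drives many immediate early genes, had 0.30 and was not called. Cyr61, a secreted matricellular protein and target of mechanical signaling, measured 410.2, 415, 239.9 and 193 CPM in STR/ort and 30.1, 27.7, 33.2 and 29.8 CPM in MRL/MpJ. It too was separated between strains (log2 difference 3.39 ± 0.21, adjusted p = 7.0e-10), at a C57BL/6J level of 43.5 ± 6.83 CPM (SD, n = 4). The fit with STR/ort replicates 3 and 4 only called 27 members and the fit with replicates 1 and 2 only called 25.

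The bases before the start are printed for 4 of these genes, all of which carry the half-site described next. They are not the 4 genes with the widest differences. A script searched 250 bases before each start for 5 short motifs on both strands. The half-site of the cyclic AMP response element, TGACG, which also lies within the full element, was found in 14 of the 21 immediate early genes with a promoter in the reference table (66.7%), in 5 of 11 heat shock genes (45.5%), in 5 of 29 interferon-stimulated genes (17.2%) and in 19.8% of 27025 genes. Below, 150 bases ending just before the start are given 5′ to 3′ on the gene's strand (RefSeq, GRCm38.p6), with this motif or its reverse complement in capitals.
Fos chr12:85473740-85473889 (plus strand): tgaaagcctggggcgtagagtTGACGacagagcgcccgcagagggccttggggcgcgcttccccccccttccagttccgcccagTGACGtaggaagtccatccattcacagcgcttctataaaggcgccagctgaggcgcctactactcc
Fosb chr7:19310046-19310195 (minus strand): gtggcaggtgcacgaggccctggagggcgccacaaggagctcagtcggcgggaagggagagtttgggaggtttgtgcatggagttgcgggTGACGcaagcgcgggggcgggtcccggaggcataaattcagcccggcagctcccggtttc
Junb chr8:84978749-84978898 (minus strand): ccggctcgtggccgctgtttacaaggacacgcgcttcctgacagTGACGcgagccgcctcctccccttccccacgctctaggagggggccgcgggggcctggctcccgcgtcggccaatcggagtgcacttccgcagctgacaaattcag
Nr4a1 chr15:101266696-101266845 (plus strand): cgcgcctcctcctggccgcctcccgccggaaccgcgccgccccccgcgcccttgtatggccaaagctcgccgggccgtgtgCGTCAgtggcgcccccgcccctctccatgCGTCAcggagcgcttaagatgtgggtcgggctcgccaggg
The AP-1 site TGACTCA was found in 0 of the 21 genes against 5.16% of all genes, and the CArG box, bound by serum response factor, in 3 (14.3%) against 1.62%. A match describes letters only, and both strains were read against the C57BL/6J reference, so the sequence of either strain here is not known.

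Further stress-responsive genes were higher with them. Of 14 heat shock genes 8 rose in STR/ort and none fell (median difference 0.77). Hspa1b, a stress-inducible chaperone, measured 18.3, 15.5, 26.6 and 19 CPM in STR/ort and 1.70, 0.930, 1.38 and 0.862 CPM in MRL/MpJ, with no overlap (log2 difference 3.98 ± 0.26, adjusted p = 1.5e-09). Hspa1a, its close copy next to it in the MHC on chromosome 17, had a difference of 3.68 ± 0.30, and reads of these near-identical genes may be shared between them. Dnajb1, their co-chaperone, measured 102, 113, 96.9 and 89.2 CPM in STR/ort and 36.1, 49.5, 40 and 39.8 CPM in MRL/MpJ, again without overlap (log2 difference 1.28 ± 0.10, adjusted p = 8.2e-09). Hspb1, a small heat shock protein, had a difference of 0.84 ± 0.14 and was not called when only STR/ort replicates 1 and 2 were used. That fit called 5 heat shock genes and the fit with replicates 3 and 4 called 10.

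Errfi1, a feedback inhibitor of the EGF receptor (chr4:150853796-150868889, GRCm38.p6), measured 379, 356, 413 and 361 CPM in STR/ort and 39.5, 26.3, 37 and 37.9 CPM in MRL/MpJ. All 4 STR/ort libraries, of both pairs, were about equally high (log2 difference 3.43 ± 0.12, adjusted p = 5.6e-13), and C57BL/6J had 44.4 ± 6.44 CPM (SD, n = 4). Of 20 genes responsive to glucocorticoids or to the acute phase, 9 rose and 2 fell. They included Ddit4, an mTOR inhibitor (difference 2.21 ± 0.23), Tsc22d3, a classical glucocorticoid target (1.39 ± 0.12), and the metallothionein Mt2 (1.51 ± 0.19), whose STR/ort levels split as 92, 76.9, 176 and 162 CPM. Orm2, an acid glycoprotein, went the other way: it measured 2.79, 3.60, 1.55 and 2.93 CPM in MRL/MpJ and 0.388, 0.118, 0.313 and 0.123 CPM in STR/ort, with no overlap (log2 difference -3.42 ± 0.41, adjusted p = 3.3e-06). Saa3, an acute phase amyloid, had only 63 counts in STR/ort and 2 in MRL/MpJ, a ratio of 26.1 with a 95% counting interval of 6.93 to 220, and its STR/ort level of 4.46, 0.948, 0.313 and 0.736 CPM was highest in replicate 1. Of 19 circadian genes 5 rose and none fell (26.3% against 14.8% of all genes). The number that rose was 2 with 1 RUVg factor, which removes unwanted variation estimated from the housekeeping genes, or without MRL/MpJ replicate 4. It was 3 without STR/ort replicate 3 or with STR/ort replicates 1 and 2 only. The list was led by Per1, which is both a clock gene and a target of stress signals. It measured 87.8, 80.1, 101 and 84.3 CPM in STR/ort and 27.8, 27.3, 22.4 and 22.8 CPM in MRL/MpJ, with no overlap (log2 difference 1.81 ± 0.13, adjusted p = 5.3e-09), whereas Bhlhe40 rose by 0.68 ± 0.11 and the clock output gene Dbp had a difference of 0.39 and was not called.

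Immediate early and heat shock genes differed less between the strains in the contralateral joints, while circadian genes shifted toward lower levels in STR/ort. The median difference of the immediate early genes was 0.63 at 1-day, 0.29 at 1-week and 0.32 at 2-weeks, and 24 of 28 had a significantly smaller STR/ort to MRL/MpJ ratio there than at 0-day, against 10.5% of all genes. For Nr4a1 the difference was -0.13, -0.67 and 0.74 at the 3 times (difference of -2.89 ± 0.27 on the log2 scale, adjusted p = 5.1e-09), and for Egr2 it was 1.57, 1.02 and 0.71 (difference of -3.34 ± 0.33 on the log2 scale, adjusted p = 8.1e-09). Heat shock genes had medians of -0.1, 0.23 and 0.37, with a lower ratio in 10 of 14 by the same test. Circadian genes had a median of 0.27 at 0-day and of -0.13, -0.51 and 0.04 in the contralateral joints, with a lower ratio in 11 of 19. At 1-week 4 of the 19 circadian genes were called higher and 9 lower in STR/ort, so the strains did not differ less there. The glucocorticoid and acute phase list had a median of 0.8 at 0-day and of 0.08, 0.69 and 0.28 in the contralateral joints, with a lower ratio in 6 of 20 and a higher ratio in 4. Errfi1 kept a call at each time with differences of 1.43, 1.71 and 0.59, all below the 0-day value (difference of -1.86 ± 0.21 on the log2 scale, adjusted p = 8.7e-08).

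**Figure D3:**
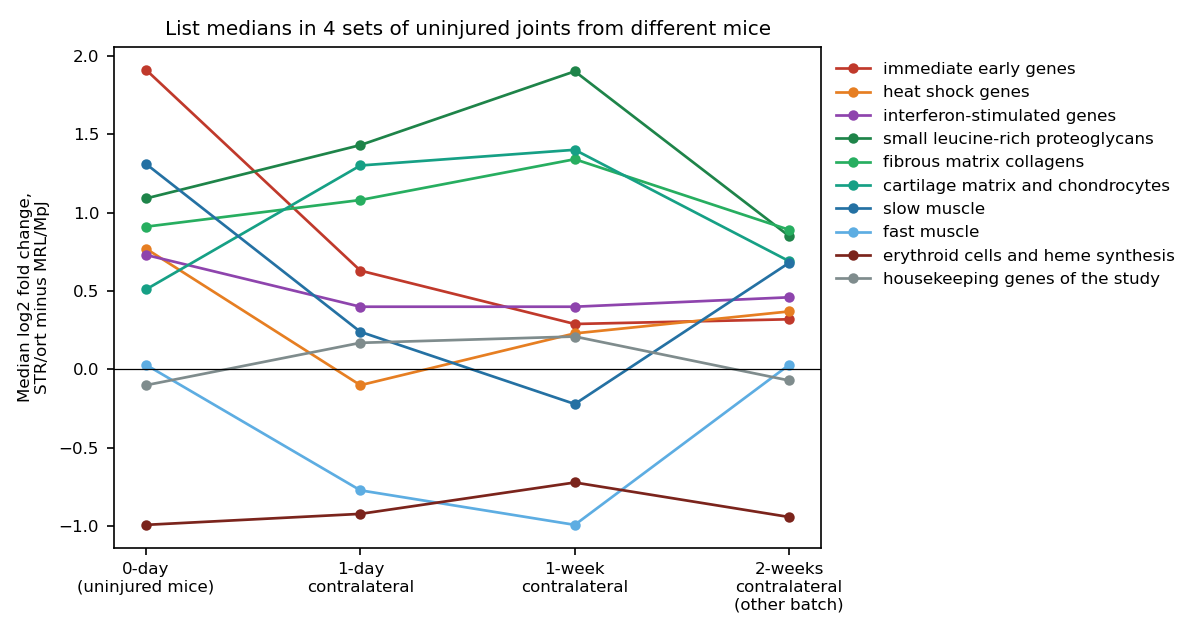
Median log2 fold change of 10 gene lists, STR/ort minus MRL/MpJ (y axis), in 0-day joints and in the uninjured contralateral joints of injured mice at 3 times (x axis). The line of the immediate early genes falls from 1.91 to between 0.29 and 0.63 and that of slow muscle from 1.31 to between -0.22 and 0.68, while erythroid genes stay between -0.99 and -0.72 and small leucine-rich proteoglycans lie between 0.85 and 1.9.

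Chemokines, the secreted proteins that recruit leukocytes, differed in both directions: 14 of 27 rose in STR/ort and 3 fell, with a median difference of 0.8. Their summed level was lower, at 1230 to 1510 CPM in STR/ort and 1530 to 1640 CPM in MRL/MpJ without overlap, and its largest part was Cxcl12, which was lower. Cxcl1, a neutrophil attractant, had 0 counts in every MRL/MpJ library against 37.5, 19.4, 14.2 and 11.5 CPM in STR/ort, which is at least 208-fold higher when MRL/MpJ is set at 3 counts over its 4 libraries. In the contralateral joints the Cxcl1 differences were 3.24, 2.36 and 1.38, the last not called, and MRL/MpJ had a mean of 0.335 CPM at 1-day. The ratio at 1-day and 1-week was lower than at 0-day by edgeR's test of that contrast (adjusted p = 9.8e-04). Ccl8, a monocyte attractant, measured 3.20, 2.01, 1.57 and 2.45 CPM in STR/ort and 0.0998, 0.233, 0.172 and 0.517 CPM in MRL/MpJ; the strains did not overlap, at low counts (log2 difference 3.25 ± 0.52, adjusted p = 7.9e-05). Cxcl13, which attracts B cells, had 32 counts in STR/ort and 2 in MRL/MpJ, a ratio of 13.3 (95% counting interval 3.38 to 114). The monocyte attractants Ccl7 and Ccl2 rose by 3.82 ± 0.69 and 3.57 ± 0.51. The 3 that fell were Ccl19, which guides naive T cells and dendritic cells, Ccl5, an attractant of T cells, and Cxcl12, the niche chemokine of the marrow. Ccl19 measured 5.09, 3.72, 4.48 and 4.31 CPM in MRL/MpJ and 0.194, 0.237, 0.522 and 0.368 CPM in STR/ort, with no overlap (log2 difference -3.69 ± 0.36, adjusted p = 2.4e-07). Ccl5 had a difference of -1.29 ± 0.31 and Cxcl12 of -0.61 ± 0.07 (not called without replicate 3 of STR/ort, at -0.57 and adjusted p = 1.6e-05), and Ccl5 lost its call with 2 RUVg factors.

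Among 29 cytokines and their receptors 5 rose and 1 fell (20.7% against 14.8% of all genes; median 0.44), and the 1 that fell was Tnf, at 3.69, 5.58, 3.96 and 2.59 CPM in MRL/MpJ and 2.33, 3.08, 0.940 and 1.59 CPM in STR/ort. These values overlapped (log2 difference -1.02 ± 0.31, adjusted p = 0.0172), and the gene was not called without replicate 2 of MRL/MpJ or replicate 3 of STR/ort, at -0.79 to -0.77 and adjusted p from 0.0595 to 0.0934. Il11ra1, the receptor chain for an interleukin of the IL-6 family, rose by 1.42 ± 0.14. Il6 and Il1b, the classical inflammatory cytokines, rose by 1.91 ± 0.66 and 1.37 ± 0.15. For Il6 the libraries overlapped, and it was not called without replicate 1, 3 or 4 of MRL/MpJ or replicate 1 or 2 of STR/ort, at 1.33 to 1.82 and adjusted p from 0.0571 to 0.144. Of 20 feedback genes and targets of NF-kB 7 rose and 1 fell (median 0.28). Tnfaip6, a hyaluronan-binding protein made under inflammation, measured 15, 5.69, 7.52 and 4.91 CPM in STR/ort and 2, 1.63, 2.41 and 0.862 CPM in MRL/MpJ (log2 difference 2.27 ± 0.35, adjusted p = 6.8e-05), with replicate 1 of STR/ort the highest and no overlap. Ptgs2, the inducible cyclooxygenase, and Cebpb, a factor of inflammatory transcription, rose by 3.79 ± 0.30 and 2.81 ± 0.18. Socs3, an inhibitor of cytokine signaling, rose by 1.62 ± 0.25 and Nfkbia, the inhibitor of NF-kB, by 0.87 ± 0.12, whereas Vcam1, an endothelial and stromal adhesion molecule, fell by 0.78 on the log2 scale. In the contralateral joints chemokines had medians of 1.03, 0.94 and 0.49, cytokines and receptors of 0.41, 0.43 and 0.18, and the NF-kB list of 0.39, 0.45 and 0.23.

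Interferon-stimulated genes formed another group that was higher in STR/ort, with 22 of 41 risen and 1 fallen (median difference 0.73). Oasl2, one of the oligoadenylate synthetase family that senses double-stranded RNA, measured 15.1, 15.8, 14.8 and 17.4 CPM in STR/ort and 3.99, 3.60, 3.96 and 4.66 CPM in MRL/MpJ. Levels in the STR/ort libraries were even and clear of MRL/MpJ (log2 difference 1.97 ± 0.15, adjusted p = 1.2e-08), and C57BL/6J was higher than both at 35.4 ± 5.71 CPM (SD, n = 4). Isg15, a ubiquitin-like modifier, measured 29.8, 31.9, 26.2 and 39.1 CPM in STR/ort and 14.2, 14.5, 13.6 and 14.8 CPM in MRL/MpJ, with no overlap (log2 difference 1.15 ± 0.13, adjusted p = 2.3e-06). Oas1a (difference 2.12 ± 0.23), Ifit1, which binds viral RNA (1.54 ± 0.24), Rtp4 (1.61 ± 0.24), Irf7, the factor that amplifies the response (0.77 ± 0.14), and Ifit3 (2.15 ± 0.25) also rose. Isg20, an exonuclease, fell by 1.06. Contralateral medians were 0.4, 0.4 and 0.46, and for Isg15 the difference there was smaller (difference of -1.01 ± 0.29 on the log2 scale, adjusted p = 0.0113).

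The interferon response element was the motif of interest here, and 4 promoters are printed for that reason. Its core repeat, a pair of TTTC runs with any 2 bases between them, searched on both strands, was present in 14 of 29 interferon-stimulated genes with a promoter (48.3%), in 3.46% of all 27025 genes and in 1 of the 21 immediate early genes. Capitals mark this motif or its reverse complement in 150 bases before the start (RefSeq, GRCm38.p6). Overlapping matches run together in capitals.
Ifit1 chr19:34640739-34640888 (plus strand): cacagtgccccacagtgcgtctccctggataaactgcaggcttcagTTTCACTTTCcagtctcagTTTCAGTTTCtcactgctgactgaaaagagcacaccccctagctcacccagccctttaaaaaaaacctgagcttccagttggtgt
Isg15 chr4:156200819-156200968 (minus strand): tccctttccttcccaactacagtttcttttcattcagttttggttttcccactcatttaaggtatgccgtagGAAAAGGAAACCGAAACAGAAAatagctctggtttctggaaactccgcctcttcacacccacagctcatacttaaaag
Oas1a chr5:120907526-120907675 (minus strand): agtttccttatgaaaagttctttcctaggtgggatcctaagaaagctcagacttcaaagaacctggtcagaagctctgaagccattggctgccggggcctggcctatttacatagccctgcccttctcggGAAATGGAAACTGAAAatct
Trim5 chr7:104288107-104288256 (minus strand): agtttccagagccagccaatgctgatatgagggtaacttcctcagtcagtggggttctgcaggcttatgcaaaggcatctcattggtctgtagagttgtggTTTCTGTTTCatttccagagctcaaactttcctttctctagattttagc
Trim5, an antiviral factor that is no member of the interferon list, carries the motif as well.

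Trim5 lies in a cluster of Trim genes on chromosome 7 that separated the strains gene by gene. Of 13 members 6 rose and 3 fell. Trim5 (chr7:104263386-104288254) had 0 counts in MRL/MpJ and 2.04, 2.25, 1.77 and 2.33 CPM in STR/ort, at least 21.1-fold higher, and its C57BL/6J level was 2.79 ± 0.332 CPM (SD, n = 4). Trim30d measured 14.6, 14.1, 10.8 and 11.7 CPM in STR/ort and 0.898, 0.698, 0.344 and 0.862 CPM in MRL/MpJ, with no overlap (log2 difference 4.12 ± 0.23, adjusted p = 1.5e-10). Trim68 fell by 1.83. Trim34b had 42 counts in MRL/MpJ and 1 in STR/ort, a ratio of 50.7 (95% counting interval 8.61 to 2050), and Trim30c fell by 2.23 on the log2 scale. Between 104 and 105 Mb of chromosome 7, 8 of 13 genes tested were called. Close copies in this cluster may share reads. In the contralateral joints Trim30d had differences of 3.53, 3.71 and 3.43.

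Genes of the major histocompatibility complex on chromosome 17 differed in both directions. Of 22 MHC class I genes and their loading partners 5 rose and 6 fell (median 0.17), and of 12 class II genes 2 rose and 3 fell (median -0.06). In class II, 3 rose and 1 fell without MRL/MpJ replicate 2, STR/ort replicate 3 or STR/ort replicate 4, and also with STR/ort replicates 1 and 2 only. H2-D1, a classical class I molecule, measured 254, 238, 222 and 230.5 CPM in STR/ort and 57.6, 73, 60.6 and 59 CPM in MRL/MpJ. No STR/ort library was near MRL/MpJ (log2 difference 1.92 ± 0.09, adjusted p = 1.1e-11), and C57BL/6J was at 263 ± 20.8 CPM (SD, n = 4). The class I genes H2-Q1 (-2.14) and H2-Q2 (-1.93) fell. The classical class I gene H2-K1 rose by 0.84 ± 0.07 and the class II chains H2-Ab1 and H2-Eb1 by 0.87 ± 0.13 and 0.96 ± 0.10. H2-Ea-ps, the locus of the class II alpha chain E that is a pseudogene in the reference strain, measured 12.2, 13.7, 14.3 and 15 CPM in MRL/MpJ and 0, 0, 0.104 and 0 CPM in STR/ort; the 410 counts of MRL/MpJ against 1 of STR/ort give a ratio of 495 (95% counting interval 88.3 to 19600). Between 34 and 36 Mb of chromosome 17, 2 adjoining windows of 1 Mb held 16 called of 56 and 19 called of 57 genes tested. Reads of both strains were aligned to a genome of another haplotype, and loss of reads from unlike alleles in this region was not tested.

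Complement genes were mixed, with 7 of 30 risen and 3 fallen (33.3% against 14.8% of all genes; median 0.02). C4b, the main mouse gene of the complement component C4, measured 81.8, 57.3, 63.8 and 60.5 CPM in STR/ort and 11, 9.07, 9.13 and 9.83 CPM in MRL/MpJ, with no overlap (log2 difference 2.75 ± 0.16, adjusted p = 2.2e-10), and C57BL/6J was at 82.7 ± 16.5 CPM (SD, n = 4). C4a, its neighbor and near copy, fell by 2.01 ± 0.51, so reads shared between these genes leave the split between them uncertain. C1s1 (1.35 ± 0.12) and C1ra (1.10 ± 0.16), the proteases of the classical pathway, and C3ar1, the receptor of anaphylatoxin C3a (1.07 ± 0.18), rose. C6, of the terminal pathway, fell by 0.74. C4b was called again at each later time with differences of 3.46, 3.89 and 2.51. Apol11b, an apolipoprotein L family member (chr15:77633951-77643286), measured 133, 121, 118 and 131 CPM in STR/ort and 13.6, 14.7, 14.6 and 17.8 CPM in MRL/MpJ (log2 difference 3.07 ± 0.14, adjusted p = 9.7e-12), and the strains did not overlap.

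Transcripts of connective tissue matrix were higher in STR/ort. Of 20 fibrous matrix collagens 13 rose and 1 fell (median difference 0.91), of 16 small leucine-rich proteoglycans 12 rose and none fell (median 1.09), of 10 tendon and ligament genes 8 rose and none fell (median 1.06), and of 28 matricellular and fibroblast activation genes 18 rose and none fell (median 0.71). These lists share members, so that they are not separate evidence. Col3a1, the collagen of loose and healing connective tissue, measured 3029, 2123, 3133 and 2638 CPM in STR/ort and 916, 812, 826 and 804 CPM in MRL/MpJ. Each STR/ort library was above each MRL/MpJ library by more than the spread within strains (log2 difference 1.70 ± 0.14, adjusted p = 4.8e-08), at a C57BL/6J level of 2566 ± 591 CPM (SD, n = 4). Col1a1, the main collagen of bone, gave 6034, 7572, 6890 and 5817 CPM in STR/ort and 5979, 6966, 5226 and 6935 CPM in MRL/MpJ. Its strains overlapped and it was not called (log2 difference 0.07 ± 0.13, adjusted p = 0.707). Col14a1, which spaces fibrils (1.73 ± 0.17), and Col18a1, of basement membranes (1.29 ± 0.12), rose. Col6a5 was the collagen that fell: it measured 18.8, 15.6, 12.9 and 17.2 CPM in MRL/MpJ and 3.98, 3.55, 4.80 and 5.28 CPM in STR/ort (log2 difference -1.88 ± 0.16, adjusted p = 4.5e-08), without overlap.

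Decorin (Dcn), a proteoglycan that binds collagen fibrils, measured 1901, 1567, 2201 and 1926 CPM in STR/ort and 965, 815, 912 and 830.4 CPM in MRL/MpJ (log2 difference 1.11 ± 0.11, adjusted p = 4.4e-07). Fn1, fibronectin, measured 3637, 2248, 2749 and 3668 CPM in STR/ort and 1116, 1009, 1095 and 1026 CPM in MRL/MpJ (log2 difference 1.54 ± 0.14, adjusted p = 1.4e-07). In neither gene did the strains overlap. Aspn (1.5 ± 0.14), Kera (1.46 ± 0.22), Prelp (1.44 ± 0.15) and Fmod (1.33 ± 0.14) of the same proteoglycan family were higher by similar amounts. Tnmd, tenomodulin, a marker of tendon and ligament cells on the X chromosome, measured 72.8, 51.8, 52 and 34.6 CPM in STR/ort and 29.6, 17.7, 22.6 and 21 CPM in MRL/MpJ (log2 difference 1.21 ± 0.21, adjusted p = 1.8e-04), again without overlap, and Mkx, a tendon transcription factor, had a difference of 1.00 ± 0.21. The matricellular Nov (Ccn3) rose by 1.73 ± 0.12. Ltbp2, which binds microfibrils, measured 32, 33.6, 27.9 and 33 CPM in STR/ort and 7.79, 8.60, 8.44 and 7.41 CPM in MRL/MpJ, with little spread in either strain (log2 difference 1.97 ± 0.10, adjusted p = 4.2e-11). Mamdc2, a proteoglycan of the extracellular matrix, measured 41.8, 33.6, 43.2 and 32.4 CPM in STR/ort and 1.10, 0.116, 0.172 and 0.517 CPM in MRL/MpJ. It was far lower in each MRL/MpJ library (log2 difference 6.13 ± 0.27, adjusted p = 7.9e-12), and C57BL/6J was at 26 ± 3.76 CPM (SD, n = 4).

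Surface and synovial genes followed. Of 14 genes of synovial lining and lubrication 8 rose and none fell (median 0.61). Prg4, lubricin, measured 4297, 2498, 4481 and 6101 CPM in STR/ort and 1318, 975, 1234 and 961 CPM in MRL/MpJ. Its lowest STR/ort library was above the highest of MRL/MpJ (log2 difference 1.95 ± 0.21, adjusted p = 1.1e-06). Hbegf, a ligand of the EGF receptor, rose by 1.92 ± 0.17. Has1, a hyaluronan synthase (chr17:17833691-17855589), measured 35.4, 18.5, 16.8 and 24.9 CPM in STR/ort and 1.20, 1.05, 0.517 and 1.38 CPM in MRL/MpJ, a wider gap with no overlap (log2 difference 4.49 ± 0.31, adjusted p = 3.6e-09), while Has2 had 0.73 ± 0.16 (not called without replicate 1 of STR/ort, at 0.58 and adjusted p = 0.00851). Among 37 matrix proteases 12 rose and 2 fell (median 0.35; none fell with STR/ort replicates 1 and 2 only), with Adamts1 (1.71 ± 0.12), the aggrecanases Adamts4 (0.73 ± 0.21; not called without replicate 1 of MRL/MpJ, at 0.59 and adjusted p = 0.0528) and Adamts5 (0.86 ± 0.11) and the macrophage elastase Mmp12 (1.74 ± 0.37) among those that rose and Mmp9, a neutrophil and osteoclast gelatinase, at -0.65 ± 0.10. Mmp13, the collagenase of hypertrophic cartilage, had a difference of 0.32 and was not called. Mmp3, a stromelysin, rose by 2.57 ± 0.37. Of 13 protease inhibitors 8 rose, among them Timp1 (1.02 ± 0.12), and Timp4 fell by 0.98. Of 20 lysyl oxidases and collagen-processing enzymes 6 rose and none fell (30% against 14.8% of all genes), led by P4ha3 (2.05 ± 0.30), Pcolce (1.18 ± 0.10) and Loxl2 (1.02 ± 0.10). Contralateral medians were 0.5, 0.78 and 0.28 for the synovial genes, 0.78, 0.94 and 0.51 for the matrix proteases, and 1.18, 1.44 and 0.65 for their inhibitors.

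Of 32 genes of cartilage matrix and chondrocytes 9 rose and none fell (28.1% against 14.8% of all genes, median 0.51). This median was below that of the fibrous matrix collagens (0.91) and above that of the matrix proteases (0.35). Whether these lists differ from each other was not tested. The count of called cartilage genes depended on the fit, with 5 called under 2 RUVg factors. It was 15 in a fit of the 8 libraries alone or without C57BL/6J replicate 1. Sox9, the master regulator of chondrocytes, measured 38, 33.6, 43.4 and 31.3 CPM in STR/ort and 11.4, 12.4, 7.75 and 13.1 CPM in MRL/MpJ. These values did not overlap (log2 difference 1.71 ± 0.17, adjusted p = 3.2e-07). Col2a1 measured 1821, 2281, 3476 and 2389 CPM in STR/ort and 1489, 1939, 1260 and 2426 CPM in MRL/MpJ, which overlapped between strains (log2 difference 0.49 ± 0.27, adjusted p = 0.169), and Acan, aggrecan, had a difference of 0.48 ± 0.19 and was not called either. Comp, an organizer of fibrils in cartilage and tendon, measured 527, 386, 519 and 398 CPM in STR/ort and 226, 231, 199 and 243 CPM in MRL/MpJ (log2 difference 1.03 ± 0.16, adjusted p = 7.6e-05) without overlap, and Cilp2, a protein of cartilage matrix, rose by 1.53 ± 0.16 and Matn4, a matrilin, by 1.23 ± 0.24. The summed level of the list was 5830 to 8770 CPM in STR/ort and 4050 to 6310 CPM in MRL/MpJ, ranges that overlap.

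Of 23 osteoblast and osteocyte genes 4 rose and 1 fell (21.7% against 14.8% of all genes; median 0.35): the Wnt antagonists Dkk1 (0.73 ± 0.18) and Sost (0.76 ± 0.16) and the matrix proteins Omd (0.82 ± 0.15) and Dmp1 (0.89 ± 0.15) rose, Bglap2, an osteocalcin copy, fell by 0.81, and none was called under 2 RUVg factors. Of 20 genes of osteoclasts and the RANKL axis 2 rose and 2 fell (20%; median -0.09), while their summed level was lower in STR/ort without overlap, at 2210 to 2560 CPM against 3250 to 3760 CPM in MRL/MpJ. The cytokine that drives osteoclast formation, RANKL (Tnfsf11, chr14:78277446-78308043), measured 8.05, 8.29, 8.67 and 10.7 CPM in STR/ort and 2.10, 2.33, 1.72 and 1.38 CPM in MRL/MpJ, with no overlap (log2 difference 2.19 ± 0.20, adjusted p = 8.9e-08) and a C57BL/6J level of 4.62 ± 0.785 CPM (SD, n = 4). The osteoclast enzymes Ctsk (-0.26) and Acp5 (-0.25) were not called, while Car2, the carbonic anhydrase of osteoclasts and red cells, fell by 1.18 and Oscar, an osteoclast receptor, rose by 0.92 ± 0.27 (not called without replicate 3 of STR/ort, at 0.62 and adjusted p = 0.075). Tnfsf11 was called again at 1-day (1.25) and 1-week (1.62) and had 0.48 at 2-weeks. Contralateral medians were 0.82, 0.88 and 0.49 for the osteoblast and osteocyte genes and 0.25, 0.52 and 0.13 for the osteoclast genes.

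Of 43 Wnt ligands, receptors and antagonists 11 rose and none fell (25.6% against 14.8% of all genes; median 0.35), 5 under 2 RUVg factors. Rspo2, which enhances Wnt signaling at the receptor, measured 9.99, 6.52, 7 and 9.94 CPM in STR/ort and 3.69, 1.16, 3.10 and 1.72 CPM in MRL/MpJ, without overlap (log2 difference 1.76 ± 0.26, adjusted p = 3.8e-05). Wnt2, a ligand, had 15 counts in STR/ort and 1 in MRL/MpJ, a ratio of 12.4 (95% counting interval 1.91 to 523). It was not called without replicate 1 of MRL/MpJ or replicate 2 of STR/ort, at 2.77 to 2.85 and adjusted p from 0.0544 to 0.0684. Secreted antagonists Sfrp2 (1.29 ± 0.18), Dkk2 (0.94 ± 0.14) and Wif1 (0.78 ± 0.13) rose as well. Of 41 genes of the TGF-beta and BMP pathways 7 rose and 1 fell (19.5% against 14.8% of all genes; median 0.28), 5 being called under 2 RUVg factors and 14 with STR/ort replicates 3 and 4 only, with Id3, a BMP target (1.38 ± 0.12), and Gdf10 (0.93 ± 0.12) among those that rose. The one that fell was Grem1, a secreted BMP antagonist, at 9.58, 11.2, 8.78 and 9.14 CPM in MRL/MpJ and 2.91, 3.91, 3.03 and 2.94 CPM in STR/ort, with no overlap (log2 difference -1.60 ± 0.21, adjusted p = 7.6e-06). In the contralateral joints the Wnt medians were 0.55, 0.52 and 0.32 and those of the TGF-beta and BMP genes 0.37, 0.56 and 0.26. Of 14 genes of the IGF axis 5 rose and none fell (35.7% against 14.8% of all genes), with Igfbp2 at 1.82 ± 0.53, Stc1 at 2.30 ± 0.25 and Igfbp6 at 1.06 ± 0.15. H19, the imprinted RNA next to Igf2, measured 1104, 1190, 1826 and 1792 CPM in STR/ort and 377, 325, 338 and 292 CPM in MRL/MpJ; the STR/ort pairs were apart, yet both were above MRL/MpJ (log2 difference 2.15 ± 0.15, adjusted p = 4.5e-09).

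The matrix differences recurred in the contralateral joints, where medians of the fibrous collagens were 1.08, 1.34 and 0.89, of the small leucine-rich proteoglycans 1.43, 1.9 and 0.85, and of the tendon and ligament genes 1.46, 1.85 and 1.01. Cartilage genes were further apart there, with medians of 1.3 at 1-day, 1.4 at 1-week and 0.69 at 2-weeks, and 16 of 32 had a significantly larger difference at 1-day and 1-week than at 0-day, against 11.7% of all genes. Comp had differences of 2.12, 2.49 and 0.81 (difference of 1.27 ± 0.24 on the log2 scale, adjusted p = 2.3e-04), and Fn1 of 1.97, 2.97 and 1.34 (difference of 0.93 ± 0.24 on the log2 scale, adjusted p = 0.00338). Muscle moved as well: fast muscle genes had a median of 0.03 at 0-day and -0.77, -0.99 and 0.03 at the later times. By the same test 18 of 19 had a lower STR/ort to MRL/MpJ ratio in the contralateral joints than at 0-day. Of these fast muscle genes 2 were called lower in STR/ort at 0-day, 17 at 1-day, 19 at 1-week and 1 at 2-weeks. The part of muscle in the contralateral values was not tested. At 0-day the summed fast muscle level was 114000 to 133000 CPM in STR/ort and 109000 to 134000 CPM in MRL/MpJ, ranges that overlap.

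Transcripts of red cell precursors were mostly lower in STR/ort. Of 27 genes of erythroid cells and heme synthesis 22 fell and none rose, with a median difference of -0.99, and their summed level was 5160 to 5630 CPM in STR/ort against 10200 to 12100 CPM in MRL/MpJ. Slc4a1, the anion exchanger of the red cell membrane, measured 2384, 2915, 2392 and 2465 CPM in MRL/MpJ and 1097, 1107, 1039 and 1128 CPM in STR/ort. No library of one strain reached the other (log2 difference -1.21 ± 0.09, adjusted p = 7.9e-09), and C57BL/6J lay between at 1605 ± 139 CPM (SD, n = 4). Alad, which makes porphobilinogen in heme synthesis (chr4:62505984-62520063), measured 257, 321, 252 and 255 CPM in MRL/MpJ and 89.6, 100.2, 82.9 and 99.8 CPM in STR/ort (log2 difference -1.54 ± 0.09, adjusted p = 4.6e-10). For this gene C57BL/6J, at 47.9 ± 4.68 CPM (SD, n = 4), was below both strains. Tspo2, a membrane protein of maturing erythroblasts (chr17:48447942-48451564), measured 42.1, 52.2, 40.5 and 45.5 CPM in MRL/MpJ and 4.46, 6.40, 2.82 and 4.05 CPM in STR/ort (log2 difference -3.35 ± 0.16, adjusted p = 2.1e-11). Hbb-bs, an adult beta globin (-1.53), Kel, a blood group antigen (-1.38), and Car1, the carbonic anhydrase of red cells (-1.64), fell too. The list kept this position in the contralateral joints, with medians of -0.92, -0.72 and -0.94.

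**Figure D4:**
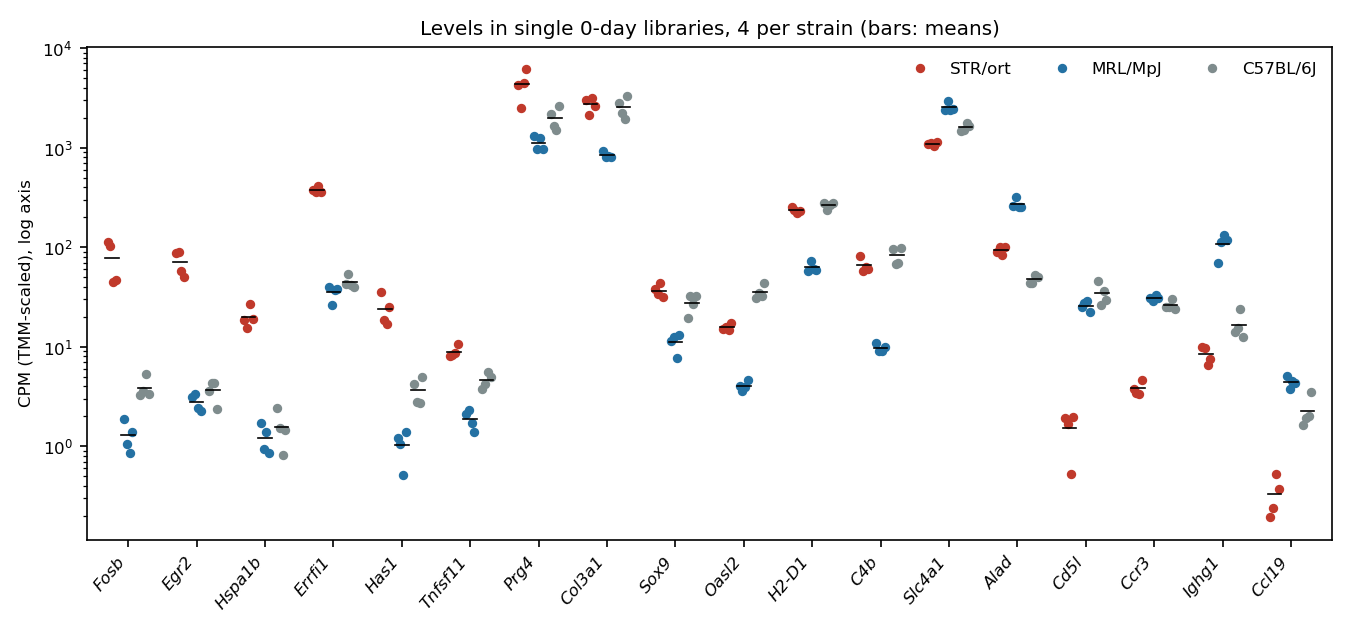
Levels (CPM, log axis) of 18 genes in each 0-day library, with 4 points per strain and bars at the means. STR/ort lies above MRL/MpJ without overlap from Fosb to C4b and below it without overlap from Slc4a1 to Ccl19. C57BL/6J lies near STR/ort for Col3a1, Sox9, H2-D1 and C4b and near MRL/MpJ for Egr2, Hspa1b, Errfi1, Cd5l and Ccr3.

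Of 27 cell cycle genes 9 fell and 1 rose (37% against 14.8% of all genes; median -0.52), with 6 falling under 2 RUVg factors and 5 under 1, 17 falling in the fit with STR/ort replicates 3 and 4, 4 in that with replicates 1 and 2, and 5 without STR/ort replicate 4. Mki67, the proliferation antigen, measured 1871, 2178, 1881 and 2202 CPM in MRL/MpJ and 1024, 1087, 740.1 and 782 CPM in STR/ort, with no overlap (log2 difference -1.16 ± 0.12, adjusted p = 7.0e-07). Cenpf, of the centromere (-1.01) and Mcm2, of the replication helicase (-0.75), fell. Cdkn1a, the inhibitor p21, was the one that rose (0.82 ± 0.12). Of 22 marrow neutrophil genes 2 fell, Mmp9 and the granule protein Ltf (-0.63 ± 0.11; not called without replicate 3 or 4 of STR/ort, at -0.58 to -0.54 and adjusted p from 7.3e-04 to 0.00104), 1 rose (13.6% against 14.8% of all genes) and the median was -0.35, with a summed level of 14900 to 17600 CPM in STR/ort and 18500 to 22000 CPM in MRL/MpJ that did not overlap. Without STR/ort replicate 1, 5 of them fell, with STR/ort replicates 3 and 4 only 6 fell, and with replicates 1 and 2 only none fell and 1 rose. In the contralateral joints the cell cycle medians were -0.33, -0.41 and -0.54, those of the neutrophil genes were -0.1, -0.16 and -0.18, and no neutrophil gene was called lower there. How much marrow each joint held was not tested.

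Lymphocyte genes divided by lineage. Of 23 T cell genes 8 fell and 1 rose (median -0.53). Cd4, the coreceptor of helper T cells, measured 20.5, 23, 24.3 and 21.7 CPM in MRL/MpJ and 12.2, 11.5, 9.71 and 10.4 CPM in STR/ort, without overlap (log2 difference -1.02 ± 0.11, adjusted p = 9.8e-07). Zap70, a kinase of the T cell receptor, fell by 1.41 (not called without replicate 1 of MRL/MpJ, at -1.10 and adjusted p = 0.0792), and Cd6, a surface receptor of T cells, had a difference of -1.40, whereas Cd3e (-0.53) and Lck (-0.34) were not called. Cd3d, a chain of the T cell receptor complex, fell by 3.69. The summed list was 94.4 to 119 CPM in STR/ort and 143 to 164 CPM in MRL/MpJ, and the T cell medians in the contralateral joints were -0.41, -0.56 and -0.18, with 8, 5 and 2 of the 9 calls found again. Of 23 B cell genes 12 rose and 1 fell (median 0.65). In the fit with STR/ort replicates 3 and 4 alone, 5 members rose, against 13 with replicates 1 and 2. Rag1, which recombines the receptor genes of early B cells, rose by 1.15 ± 0.15, Vpreb3 by 1.12 ± 0.17 and Cd72 by 1.08 ± 0.16, and Jchain, a plasma cell product, fell by 0.82. The summed B cell list went the other way, at 1590 to 1750 CPM in STR/ort and 1830 to 2110 CPM in MRL/MpJ. This sum includes Cd24a, a surface protein that red cell precursors also carry, which had a difference of -0.58 and was not called. Contralateral B cell medians were 1.06, 0.4 and 0.8.

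Antibody genes were apart as well. Ighg1, the constant region of IgG1 (chr12:113326541-113330523), measured 68.8, 114, 132 and 117 CPM in MRL/MpJ and 9.99, 9.60, 6.58 and 7.61 CPM in STR/ort. Each MRL/MpJ library was well above STR/ort (log2 difference -3.66 ± 0.21, adjusted p = 3.6e-10), with C57BL/6J at 16.4 ± 5.20 CPM (SD, n = 4). Igkv8-27, a kappa variable segment, had 0 counts in MRL/MpJ and 1.55, 2.01, 3.76 and 1.59 CPM in STR/ort, at least 22.5-fold higher. In the heavy chain region of chromosome 12, the window from 114 to 115 Mb held 15 called of 36 genes and that from 115 to 116 Mb 12 of 23, and in the kappa region the window from 70 to 71 Mb of chromosome 6 held 12 of 32. These segments are polymorphic between strains and share reads with each other.

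Macrophage genes changed in both directions, 5 of 23 up and 7 down (median 0.08). Marco, a scavenger receptor of marginal zone and marrow macrophages, measured 1.60, 2.44, 2.07 and 2.41 CPM in MRL/MpJ and 0.0970, 0, 0 and 0 CPM in STR/ort; 63 counts against 1 give a ratio of 76 (95% counting interval 13.2 to 3050). Cd5l, a secreted protein of tissue macrophages (chr3:87357881-87371074), measured 25, 27.2, 28.8 and 22.2 CPM in MRL/MpJ and 1.94, 1.66, 0.522 and 1.96 CPM in STR/ort, without overlap (log2 difference -4.08 ± 0.24, adjusted p = 4.6e-10). Timd4 (-1.67 ± 0.11) and Spic (-1.05 ± 0.15), which mark resident and iron-recycling macrophages, fell too. In the other direction, Vsig4, a complement receptor of resident macrophages including those of synovium, measured 16.5, 7.70, 16 and 16.2 CPM in STR/ort and 3.49, 2.67, 3.27 and 2.41 CPM in MRL/MpJ. Replicate 2 of STR/ort was low, although still above every MRL/MpJ library (log2 difference 2.24 ± 0.25, adjusted p = 1.3e-06). Lyve1, which marks perivascular macrophages and lymphatic vessels, rose by 1.54 ± 0.14 and Cd14, the coreceptor for lipopolysaccharide, by 2.03 ± 0.22. The general markers Csf1r (0.18) and Cd68 (-0.29) were not called. The summed list was 801 to 1030 CPM in STR/ort and 1140 to 1280 CPM in MRL/MpJ, and its contralateral medians were 0.63, 0.52 and 0.27.

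Ccr3, the eotaxin receptor of eosinophils (chr9:124017825-124031692), was among the most firmly lower genes. It measured 30.9, 29.1, 33.1 and 31 CPM in MRL/MpJ and 3.79, 3.44, 3.34 and 4.66 CPM in STR/ort, an even and complete separation (log2 difference -3.02 ± 0.12, adjusted p = 3.6e-12), and C57BL/6J was at 26.1 ± 2.73 CPM (SD, n = 4). Of 19 Toll-like receptors and adaptors 1 rose and 5 fell (31.6% against 14.8% of all genes; median 0), while 3 fell without MRL/MpJ replicate 1 or with STR/ort replicates 3 and 4 only. The one that rose was Ticam2, the adaptor TRAM of Toll-like receptor signaling, at 11.7, 11.5, 11.3 and 11.9 CPM in STR/ort and 2.79, 1.74, 3.27 and 3.10 CPM in MRL/MpJ (log2 difference 2.12 ± 0.16, adjusted p = 1.2e-08). The receptors Tlr1 (-2.53) and Tlr6 (-0.81) were among those that fell. Of 14 mast cell genes 3 rose and 1 fell (28.6% against 14.8% of all genes). The one that fell was the tryptase Tpsab1, with 33 counts in MRL/MpJ and 4 in STR/ort, a ratio of 9.96 (95% counting interval 3.54 to 38.7). The chymase Cma1 (1.21 ± 0.29) and Mcpt8, a protease of basophils (1.07 ± 0.13), rose. Tpsab1 is 1 of 12 genes taken from the larger number that the study names for MRL/MpJ, of which 4 rose and 5 fell in STR/ort. The study chose them on these samples, so they are no independent evidence. Besides Tpsab1, the lower ones were Aox4, an aldehyde oxidase (71 counts in MRL/MpJ and 5 in STR/ort, a ratio of 17.1 with a 95% counting interval of 7.01 to 54.4), B4galnt2, a glycosyltransferase (-2.51 ± 0.19), Trpm1, a cation channel (-1.78 ± 0.41), and Vwa5a (-1.28 ± 0.08), and the higher ones included Capg, an actin-capping protein (2.31 ± 0.11).

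Slow muscle fibers gave a further difference. Of 14 slow muscle genes 12 rose in STR/ort and none fell (median 1.31), while of 19 fast muscle genes 2 fell (1 with STR/ort replicates 3 and 4 only) and none rose (10.5% against 14.8% of all genes; median 0.03), those that fell being Ryr1, the calcium release channel (-0.85 ± 0.14), and Myh1 (-0.66 ± 0.17; not called without replicate 1 of MRL/MpJ or replicate 4 of STR/ort, at -0.58 to -0.52 and adjusted p from 0.023 to 0.0307). Myl2, the slow and cardiac regulatory light chain, measured 114, 188, 131 and 297 CPM in STR/ort and 71.9, 25.2, 20.7 and 24.5 CPM in MRL/MpJ. The strains did not overlap, although replicate 1 of MRL/MpJ stood above the other MRL/MpJ libraries and replicate 4 of STR/ort above the other STR/ort libraries (log2 difference 2.31 ± 0.33, adjusted p = 2.4e-05). Myh7, the slow myosin heavy chain (2.25 ± 0.34), and Tnni1, slow troponin I (2.57 ± 0.37), rose as well. Myh4, the heavy chain of the fastest fibers, measured 31850, 30240, 29140 and 31850 CPM in STR/ort and 34610, 31650, 37710 and 35420 CPM in MRL/MpJ, which overlapped and was not called (log2 difference -0.18 ± 0.13, adjusted p = 0.314). Summed slow muscle transcripts were 3260 to 4900 CPM in STR/ort and 2160 to 3570 CPM in MRL/MpJ, and the list median was 0.24, -0.22 and 0.68 in the contralateral joints. The part of muscle content in other results was not tested.

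Fat genes depended on the pair of STR/ort libraries. Of 25 genes of white and brown fat 6 rose and 1 fell (28% against 14.8% of all genes; median 0.25), with 8 rising in the fit of replicates 3 and 4, 1 in that of replicates 1 and 2, and 3 without STR/ort replicate 3. With 1 RUVg factor 2 members were called and with 2 factors 4, and the contralateral medians were 0.13, 0.17 and 0.2. Ucp1, given above for STR/ort, was 0.0998, 0.930, 0.172 and 2.07 CPM in MRL/MpJ, and its call (log2 difference 3.81 ± 1.19, adjusted p = 0.0211) was lost in 9 alternative fits, among them those without STR/ort replicate 3 or 4 and that with replicates 1 and 2 only, where the difference was -3.49. Cidea, a lipid droplet protein of brown fat, rose by 2.83 ± 0.68, at 1.75, 2.49, 26.6 and 15.2 CPM in STR/ort. Adipoq, a product of all adipocytes, had a difference of 0.17 and was not called. Of 31 genes of the respiratory chain 2 rose (6.45% against 14.8% of all genes), Cox5b and Cox6a2 (0.69 ± 0.21; not called without replicate 2 of MRL/MpJ or replicate 4 of STR/ort, at 0.47 to 0.63 and adjusted p from 0.0514 to 0.0748), and Cox5b lost its call with replicates 1 and 2 alone. The fit with replicates 3 and 4 only called 4 respiratory genes, that with replicates 1 and 2 only 0, and that with 1 RUVg factor 0, and the contralateral medians were -0.56, -0.72 and 0.08.

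Further genes were among those with the smallest adjusted p. Gdpd3, a lysophospholipase D (chr7:126766414-126775645), had the smallest adjusted p of the genes that rose: it measured 51, 53.1, 52.9 and 58.2 CPM in STR/ort and 1.70, 1.74, 1.89 and 2.76 CPM in MRL/MpJ (log2 difference 4.77 ± 0.14, adjusted p = 1.8e-14), and C57BL/6J was at 3.63 ± 0.606 CPM (SD, n = 4). Tm4sf20, a tetraspanin-like membrane protein, had 491 counts in STR/ort and 2 in MRL/MpJ, a ratio of 203 (95% counting interval 56 to 1680). Zfp979, a zinc finger gene, measured 13.8, 10.5, 13.7 and 9.94 CPM in STR/ort and 0.0998, 0.116, 0.344 and 0.172 CPM in MRL/MpJ, with MRL/MpJ near 0, and its 443 counts in STR/ort against 5 give a ratio of 73.4 (95% counting interval 31.2 to 227). Klf4 (1.80 ± 0.08), Egr1 (4.30 ± 0.19), Apold1, an endothelial early response gene (3.44 ± 0.16), and Trim12a of the Trim cluster (6.58 ± 0.19) were among the 10 genes with the smallest adjusted p as well.

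Among genes that fell, Gcnt1, a glycosyltransferase that branches O-glycans (chr19:17326141-17372844), measured 60.3, 70.2, 67.3 and 64.3 CPM in MRL/MpJ and 16.6, 14.2, 15.8 and 15 CPM in STR/ort (log2 difference -2.08 ± 0.08, adjusted p = 2.0e-12). There was no overlap, and C57BL/6J, at 70.5 ± 4.05 CPM (SD, n = 4), stood with MRL/MpJ. Natd1 (-2.21 ± 0.11), Ifitm6, an interferon-induced transmembrane protein of myeloid cells (-2.41 ± 0.12), Dmtn, a membrane skeleton protein of red cells (-1.52 ± 0.08), and Dnah8, an axonemal dynein (-2.39 ± 0.13), were among the next, and the smallest adjusted p was that of Gm8210, a predicted gene with 3801 counts in MRL/MpJ and 4 in STR/ort, a ratio of 1150 (95% counting interval 447 to 4210). Gm5177, a predicted gene, fell by 3.44 at 0-day, and its differences were -4.31, -4.06 and -0.05 in the contralateral joints, the last in the other batch. Rpl27, a ribosomal protein gene, measured 596, 615, 1019 and 1023 CPM in STR/ort and 199.5, 249, 206 and 203 CPM in MRL/MpJ at 0-day (log2 difference 1.93 ± 0.16, adjusted p = 3.2e-08), without overlap, and its differences were 1.67, 1.70 and 0.01 at the 3 later times. Gdpd3 in contrast had 4.51, 4.76 and 4.33 and Gcnt1 -1.74, -1.63 and -1.59 at the 3 times.

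In all, 4 genes had 0 counts in every MRL/MpJ library and at least 10 in every STR/ort library, namely Cxcl1, Trim5 and Igkv8-27, given above, and Gm5512, a transcribed pseudogene at 1.36, 1.42, 1.88 and 1.35 CPM in STR/ort (at least 15.1-fold higher). The reverse was found for 0 genes. Calls were found on every chromosome except Y (0 of 6 genes), and on the others they ran from 10.7% of the genes tested on chromosome 10 to 19.3% on chromosome 12, which holds the antibody heavy chain genes.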

How the data were processed

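Poly(A) RNA libraries of whole knee joints were used, 4 per strain at 0-day. Per the labels and the study's methods, the authors aligned the reads to mm10 with TopHat2 (version 2.0.11) and counted them per RefSeq gene with featureCounts, without a stated strand setting, so that reads from antisense partners cannot be told apart. They deposited whole-number counts without normalization for 17313 genes, of which 3 repeated entries were dropped and 24 carry dates in place of symbols. Every library has a column, and 0 of 190 pairs within groups were identical. Nothing says whether libraries of a strain were processed separately beyond being separate samples, so p values measure the spread between these libraries, and intervals on counts cover counting error only.

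All genes passed the study's filter (2 or more counts in 5 or more libraries). The 12 libraries of 0-day entered 1 fit with a mean per strain in edgeR (version 4.0.16, R 4.3.3), with TMM factors, the quasi-likelihood test and Benjamini-Hochberg adjustment over all 17310 genes, and all adjusted p values come from it. Calls needed an adjusted p below 0.05 and a fold change above 1.5. Contralateral joints were fitted per time with their injured joints, and the difference from 0-day in 1 fit of 40 uninjured libraries of batch 1. For levels in CPM, TMM factors came from all 100 libraries. A gene with 0 counts in a strain is given as a lower bound at 3 counts over its libraries (0.0993 CPM in MRL/MpJ). Positions matched by symbol for 16662 genes (RefSeq, GRCm38.p6). On simulated data for the 0-day comparison with 200 of 17310 genes changed, 90.8% of 98 genes changed by 1 on the log2 scale and 98% of 102 changed by 2 were recovered, with 3 false calls. The changed genes were drawn only from those above a minimum mean count, so recovery of genes with few counts was not simulated.

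The genes and lists were chosen with earlier results of these data known, so none is independent support. Named were the 10 called genes of smallest adjusted p in each direction, genes at 0 in one strain, the members of each list with the largest differences and defining members that were not called, and 12 of the genes the study names for MRL/MpJ. Some genes under this rule are not reported here. Alternatives were RLE factors, housekeeping scaling, TMM without muscle, erythroid and immunoglobulin genes, RUVg with 1 or 2 factors, no filter, filterByExpr, DESeq2 (version 1.42.0), the likelihood ratio test, fits of 8 and of 100 libraries, a replicate block, each library left out, and, chosen after seeing the data, either pair of STR/ort libraries alone.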

Additional observations from a re-analysis of the deposited data

Results flagged for a closer look

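The 8 library values of 65 genes were screened, in 130 groups of 4. A library stood apart from the other 3 by Dixon's test in 12 groups, where chance alone flags about 1 in 20 groups. For genes with few counts, the library concerned is the one with any count: Saa3 in MRL/MpJ replicate 2 (0.2325 CPM), H2-Ea-ps in STR/ort replicate 3 (0.1044 CPM), Marco in STR/ort replicate 1 (0.09704 CPM) and Tm4sf20 in MRL/MpJ replicate 4 (0.3448 CPM). Saa3 was also high in STR/ort replicate 1, at 4.464 CPM. MRL/MpJ replicate 2 was high in 3 genes, the erythroid genes Slc4a1 (2915 CPM) and Alad (320.8 CPM) and the ribosomal gene Rpl27 (248.9 CPM). STR/ort replicate 2 was low for Vsig4 (7.701 CPM) and high for Grem1 (3.91 CPM). MRL/MpJ replicate 1 was high for Myl2 (71.88 CPM), and STR/ort replicate 3 for Gm5512 (1.879 CPM). None of these libraries closed the gap between the strains.

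For 22 of these genes the difference between strains was itself different in the contralateral joints of 1-day and 1-week, by edgeR's test of that contrast, which called 22.2% of all genes. Genes with 3 or fewer counts in a strain at 0-day, such as Cxcl1, were left out of this screen. The values below are the contralateral minus the 0-day log2 difference. Among genes higher in STR/ort at 0-day, the ratio was smaller in the contralateral joints for Fosb (-3.36), Egr2 (-3.34), Cidea (-3), Nr4a1 (-2.89), Fos (-2.81), Hspa1b (-2.8), Cyr61 (-2.43), Cox5b (-2.02), Errfi1 (-1.86), Dnajb1 (-1.48), H19 (-1.46), Per1 (-1.3) and Isg15 (-1.01). It was larger for the matrix and complement genes Comp (1.27), Fn1 (0.93), C4b (0.92) and Dcn (0.61), and also for Col1a1 (0.67), which was not called at 0-day. For genes lower in STR/ort the contrast was closer to 0 in the contralateral joints by 1.08 for Tspo2, 0.87 for Col6a5, 0.58 for Ccr3 and 0.39 for Gcnt1.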

How the results depend on the processing

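The count of 2558 genes called at 0-day stayed within 1.5-fold under every alternative except an adjusted p alone (5850). It was 1884 with 2 RUVg factors, 2379 with 1, 2326 with filterByExpr, 2406 with DESeq2, 2531 with 8 libraries, 2646 with 100, and 2285 to 2688 with 1 library left out, and 0 genes were called in the opposite direction. With the replicate block it was 2483 (1408 higher and 1075 lower). Libraries of the same number had correlations of -0.088, 0.142, 0.109 and -0.157 for numbers 1 to 4, so the numbers do not pair the strains. The 1030 calls found again at all 3 later times became 427 with 2 RUVg factors and 2478 with an adjusted p alone, and the 3838 genes whose difference changed became 2476 with the 1-day joints only. The 4 genes at 0 in MRL/MpJ became 10 at a minimum of 5 counts and 1 at a minimum of 20. Of 209 genes named and called, filterByExpr removed 9, 166 were tested and called under every alternative, and 1 reversed, Ucp1 (-3.49 with STR/ort replicates 1 and 2 only). Of the 209, 27 were not called with 2 RUVg factors, among them Dkk1, Dmp1, Sost, Omd, Wif1, Igfbp2, Ntrk3, Ngfr, C4a, Jchain and Cdkn1a, and 24 with STR/ort replicates 1 and 2 only, among them Mmp9, Nfkbia, Cidea, Gadd45a, Plvap and Alox5. With STR/ort replicates 3 and 4 only, 4 were not called (Has2, Il6, Myh1 and Saa3). Among genes not called, signs turned for Acan (-0.12), Col2a1 (-0.24) and Col1a1 (-0.11) with 2 RUVg factors, and Col1a1 ranged from 0 to 0.13 with 1 library left out. The causes of these changes were not tested. Depth limits genes of few counts, for which ratios carry wide counting intervals.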

Other observations

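Genes of peripheral nerve were partly higher in STR/ort. Of 22 genes of nerve and Schwann cells 6 rose and 2 fell (36.4% against 14.8% of all genes; median difference 0.42). Ngfr, the low-affinity neurotrophin receptor (1.15 ± 0.33), Ntrk3, a neurotrophin receptor (1.24 ± 0.33), and Gldn, which assembles nodes of Ranvier (1.48 ± 0.33), rose, as did Ncmap (1.16 ± 0.22). The neurotrophic factor Artn fell by 1.79. Endothelial genes were called at 16.7%, near the 14.8% of all genes. Of 24, Cldn5 (0.80 ± 0.13) and Plvap (0.69 ± 0.09) rose and Aplnr (-0.76 ± 0.11) and Ackr1 (-0.59 ± 0.12) fell, with Pecam1 at 0.26 without a call. Ackr1 was not called without replicate 1, 2 or 3 of MRL/MpJ or replicate 3 of STR/ort, at -0.58 to -0.53 and adjusted p from 0.00301 to 0.00534. Its call was lost in 12 alternative fits in all, among them RLE factors, housekeeping scaling, RUVg with 1 or 2 factors and DESeq2. With STR/ort replicates 1 and 2 only, 2 endothelial genes were called in place of 4, and 4 rose without MRL/MpJ replicate 1. Of 6 skin and hair genes Dsp (2.03 ± 0.23) and Perp (1.13 ± 0.26) rose (33.3% against 14.8% of all genes), with a summed level of 21.2 to 23.2 CPM in STR/ort and 14.3 to 17.2 CPM in MRL/MpJ, low in both.

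Of 38 antioxidant and xenobiotic genes 4 rose and 5 fell (23.7% against 14.8% of all genes; median -0.12). Duox1 (2.02 ± 0.41) and Nox4, NADPH oxidases that make hydrogen peroxide (1.63 ± 0.23), the extracellular superoxide dismutase Sod3 (1.40 ± 0.16) and the plasma glutathione peroxidase Gpx3 (0.99 ± 0.08) rose. Those that fell included Hmox1, which degrades heme (-1.47), Glo1, a glyoxalase (-1.12), and Prdx2, a peroxiredoxin abundant in red cells (-0.79). Of 27 prostaglandin and leukotriene genes 14.8% were called, the same share as of all genes: 2 rose, Ptgs2 and Pla2g2d (0.92 ± 0.18), and 2 fell, the latter being the lipoxygenases Alox5 (-0.70 ± 0.09) and Alox15 (-0.63 ± 0.16; not called without replicate 2 of MRL/MpJ or replicate 3 of STR/ort, at -0.51 to -0.48 and adjusted p from 0.0125 to 0.0254). Of 9 genes of the Ifi200 family 2 rose, Ifi202b (1.36 ± 0.12) and Pyhin1 (1.25 ± 0.15), and none fell (22.2% against 14.8% of all genes). Of 19 genes of muscle injury, denervation and atrophy 4 rose and 1 fell (26.3% against 14.8% of all genes), with Sln, a regulator of the calcium pump (1.23 ± 0.27), and Myoc (1.49 ± 0.21) higher and Gadd45a at -0.74 ± 0.11.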
